A study of Mus musculus with 13 samples.

Results

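Genes of the cell division cycle were read out of bulk RNA sequencing of mouse brain hemispheres collected 4 days after controlled cortical impact (CCI), in which a piston strikes the exposed cortex to model traumatic brain injury, or after sham surgery. A list of 43 genes was taken that covers entry into the cycle, DNA replication, mitosis and cytokinesis. A row was found by gene name for 42 of them, and 39 had enough reads to be among the 14875 genes tested. All mice were wild-type C57BL/6 males aged 12 to 16 weeks. CCI mice 1, 2, 3 and 5 each gave an ipsilateral library, on the side of the impact (n = 4), and sham mice 4 and 6 did so on the side of the sham operation (n = 2). The opposite, contralateral hemisphere was taken from the same CCI mice (n = 4) and from sham mice 4, 6 and 8 (n = 3). Every ipsilateral library carries the mark RH and every contralateral one LH, so the side of surgery cannot be told apart from any lasting right-left difference except through the sham mice. Each library is a whole perfused hemisphere, and in such bulk samples fewer cells of a type and less RNA per cell cannot be told apart.

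A dividing cell passes in order through G1, S phase, G2 and mitosis, and cyclins that partner cyclin-dependent kinases set that order. D cyclins with Cdk4 or Cdk6 start the passage through G1, E2F factors then switch on the genes of DNA replication, and A and B cyclins with Cdk1 carry the cell into and through mitosis, after which the spindle checkpoint and the anaphase-promoting complex release the sister chromatids. Nearly all neurons of the adult brain have left the cycle, while glia, vascular cells and invading blood cells can re-enter it after injury. Most mitotic transcripts are abundant in cells in G2 and mitosis and low in G1 or resting cells, which is why they serve as markers of cycling cells, whereas D cyclins and Pcna are also made in cells that do not divide.

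Promoter windows are shown for 6 of the genes that results below turn on, because they carry short motifs known from cell cycle promoters and because the E2F motif and the CHR motif differed in how often they occurred among the groups of genes. Each window runs from 250 bases before to 50 bases after the transcript start, 5′ to 3′ on the gene's strand, as given by RefSeq for GRCm38.p6. Capitals mark motifs found on either strand by exact match: the E2F site (TTTCCCGC, TTTCGCGC, TTTGCCGC or TTTGGCGC), the cell cycle genes homology region or CHR (TTTGAA) and the CCAAT box (CCAAT). Motifs may overlap, as the pair of E2F sites in Mcm5 does.
Mcm3 (chr1:20820263-20820562, minus strand): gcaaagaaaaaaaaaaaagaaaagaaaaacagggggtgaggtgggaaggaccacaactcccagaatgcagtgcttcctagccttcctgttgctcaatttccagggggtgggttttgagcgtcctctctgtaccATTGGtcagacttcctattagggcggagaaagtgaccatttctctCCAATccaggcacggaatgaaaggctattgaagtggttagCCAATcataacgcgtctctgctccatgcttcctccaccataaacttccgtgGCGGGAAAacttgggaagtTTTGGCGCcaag
Mcm5 (chr8:75109259-75109558, plus strand): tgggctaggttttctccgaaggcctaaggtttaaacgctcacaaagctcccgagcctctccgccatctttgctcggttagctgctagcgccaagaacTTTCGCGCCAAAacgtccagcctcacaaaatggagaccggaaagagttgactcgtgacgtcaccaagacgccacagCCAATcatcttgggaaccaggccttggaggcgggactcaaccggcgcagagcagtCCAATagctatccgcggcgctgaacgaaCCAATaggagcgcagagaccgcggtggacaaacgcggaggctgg
Cdk1 (chr10:69352863-69353162, minus strand): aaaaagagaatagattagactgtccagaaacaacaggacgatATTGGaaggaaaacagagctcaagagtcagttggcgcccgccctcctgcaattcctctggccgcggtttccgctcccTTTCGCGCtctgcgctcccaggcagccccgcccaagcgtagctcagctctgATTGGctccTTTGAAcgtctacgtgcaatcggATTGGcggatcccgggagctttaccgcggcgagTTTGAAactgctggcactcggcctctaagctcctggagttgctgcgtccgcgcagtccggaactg
Top2a (chr11:99024140-99024439, minus strand): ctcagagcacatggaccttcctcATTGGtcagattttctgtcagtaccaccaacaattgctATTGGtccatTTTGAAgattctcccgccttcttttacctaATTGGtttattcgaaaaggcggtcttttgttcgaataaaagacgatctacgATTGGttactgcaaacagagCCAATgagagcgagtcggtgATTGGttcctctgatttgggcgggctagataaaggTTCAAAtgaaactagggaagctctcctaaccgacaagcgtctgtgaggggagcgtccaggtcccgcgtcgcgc
Ccnb2 (chr9:70421505-70421804, minus strand): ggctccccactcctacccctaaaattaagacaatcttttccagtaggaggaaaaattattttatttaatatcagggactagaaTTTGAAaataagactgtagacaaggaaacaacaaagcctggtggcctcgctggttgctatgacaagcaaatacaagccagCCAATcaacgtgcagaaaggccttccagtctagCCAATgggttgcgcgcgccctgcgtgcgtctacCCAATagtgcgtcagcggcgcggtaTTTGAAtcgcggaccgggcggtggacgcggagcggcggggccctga
Cdc20 (chr4:118437294-118437593, minus strand): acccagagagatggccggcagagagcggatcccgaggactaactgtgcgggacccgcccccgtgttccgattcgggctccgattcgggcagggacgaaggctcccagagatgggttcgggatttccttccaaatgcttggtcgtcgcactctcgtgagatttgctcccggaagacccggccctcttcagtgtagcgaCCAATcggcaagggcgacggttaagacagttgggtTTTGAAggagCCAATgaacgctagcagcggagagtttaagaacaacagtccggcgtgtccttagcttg
An E2F site was present in the windows of 5 of 11 genes of replication and nucleotide supply, against 1 of 19 mitotic genes, 1 of 5 G1 genes and 2.6% of all 27025 genes with a window. The CHR motif was present for 13 of 19 mitotic genes, against 2 of 11 genes of replication and nucleotide supply, none of 5 G1 genes (0%) and 20.2% of all genes. A CCAAT box was present for 26 of 35 listed genes and 41.1% of all genes. These matches describe letters in a window and no binding was measured. Aurkb, Ccna2, Ccnd1, Ccnd2, Ccne2, Mcm4 and Tpx2 had no entry.

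Libraries held 5604856 to 7955076 estimated counts, with CCI ipsilateral libraries the deepest at 7126708 to 7955076, against 5908022 to 6874956 in sham ipsilateral, 5604856 to 7444568 in CCI contralateral and 6578614 to 6855548 in sham contralateral libraries. Levels below are CPM, reads of a gene scaled to the size of its library with edgeR's TMM factors, and fold changes with their standard errors come from edgeR's quasi-likelihood test over 14875 genes. A gene is called where its p-value adjusted by the Benjamini-Hochberg method is under 0.05. Defining markers of neurons, oligodendrocytes, astrocytes and microglia were present in every library except Vim and Gad2, which are listed at 0 in all 13. Among the listed cell cycle genes Mcm6 is likewise listed at 0 in all 13 libraries, and Mki67 is not analysed here.

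Most of the cell cycle genes were higher in the injured hemisphere. Against sham ipsilateral hemispheres 28 of 39 tested genes were higher in CCI ipsilateral hemispheres and 0 were lower, at a median log2 fold change of 1.26. Across all genes 22.5% were called, 12.5% as higher and 10% as lower, at a median of 0.00. A difference of at least 2-fold upward was called for 21 of the 39 genes and for 4.91% of all genes. The 21 include Cdk1, Ccnb2, Aurkb, Bub1 and Cdc20, which were tested only through the CCI ipsilateral libraries, so this count leans upward. The share of all genes keeps such genes too. In 33 genes every CCI ipsilateral library lay above both sham ipsilateral libraries and in 1, Ccnd2, every one lay below. The same count was not made over all genes, so this one only describes the listed genes. Some genes were measurable mainly in the injured hemisphere. Cdk1, Ccnb2, Aurkb, Bub1 and Cdc20 passed the filter on low counts only through the CCI ipsilateral libraries. Of the 34 genes that passed without them 23 were called higher (67.6%), against 11.7% of the 14490 genes of the whole table that passed in that way. Among these 34 the median log2 fold change was 1.39 for 15 genes of mitosis and cytokinesis, 0.53 for 11 of replication and nucleotide supply and 0.35 for 8 of G1, and the difference between these groups was not tested. The count of genes called higher fell when sham ipsilateral animal 6 was left out, which leaves 1 sham ipsilateral library. That fit cannot tell a trait of animal 6 from the loss of a library. The unadjusted p was under 0.05 for 34 of the 39 genes, a count that was not made over all genes.

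**Figure D1:**
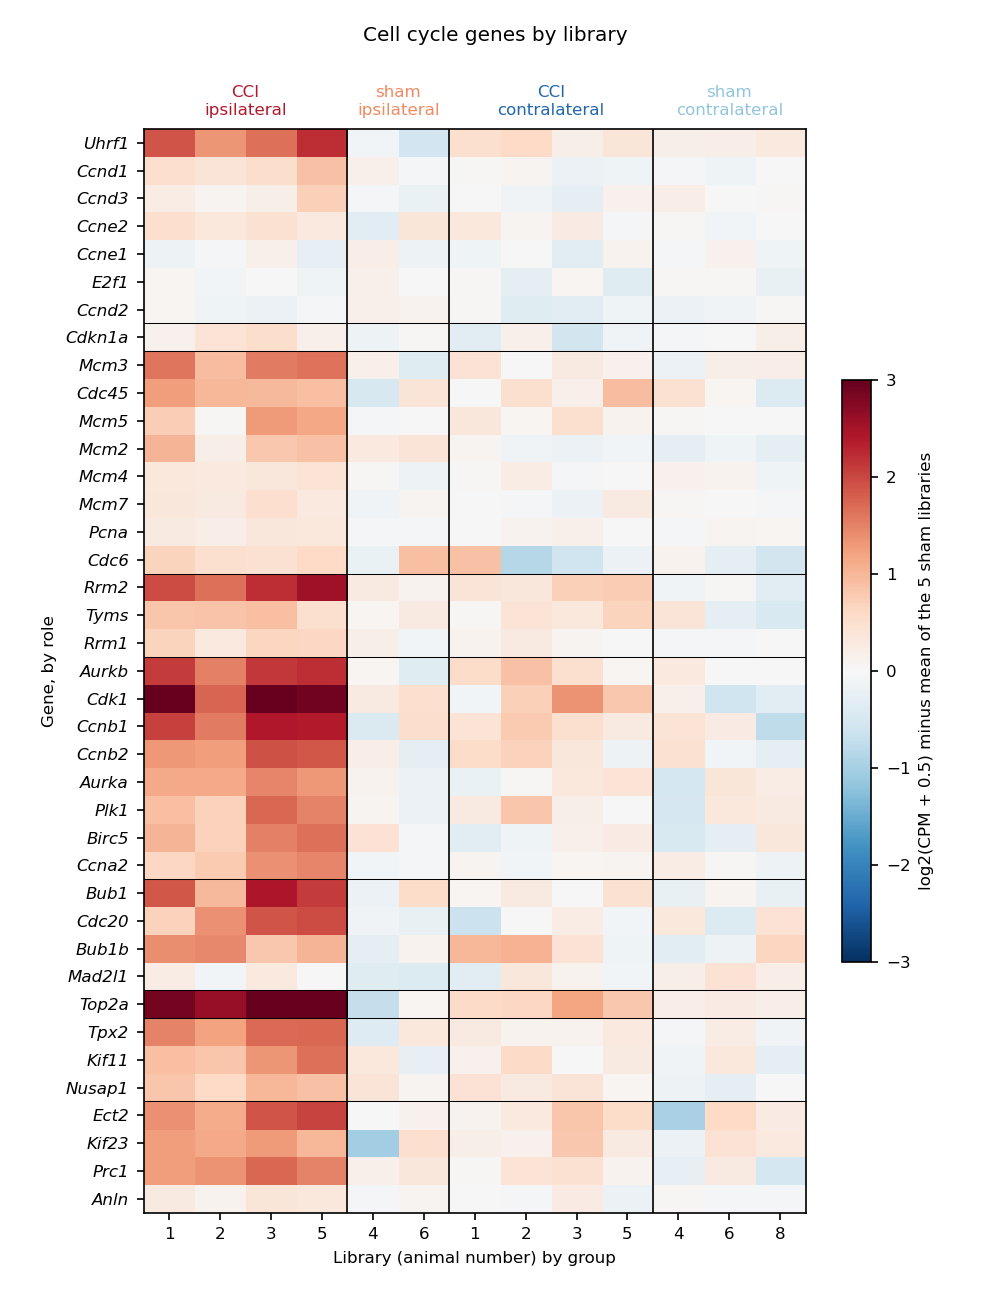
Level of each tested cell cycle gene in each library, as log2(CPM + 0.5) minus the mean of the 5 sham libraries, with genes in rows by role and libraries in columns by group and animal number. Red cells, which mark levels above the sham mean, fill the CCI ipsilateral columns for the mitotic genes and for Uhrf1, Mcm3 and Rrm2, while Ccne1, E2f1 and Ccnd2 stay near the sham mean.

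**Figure D2:**
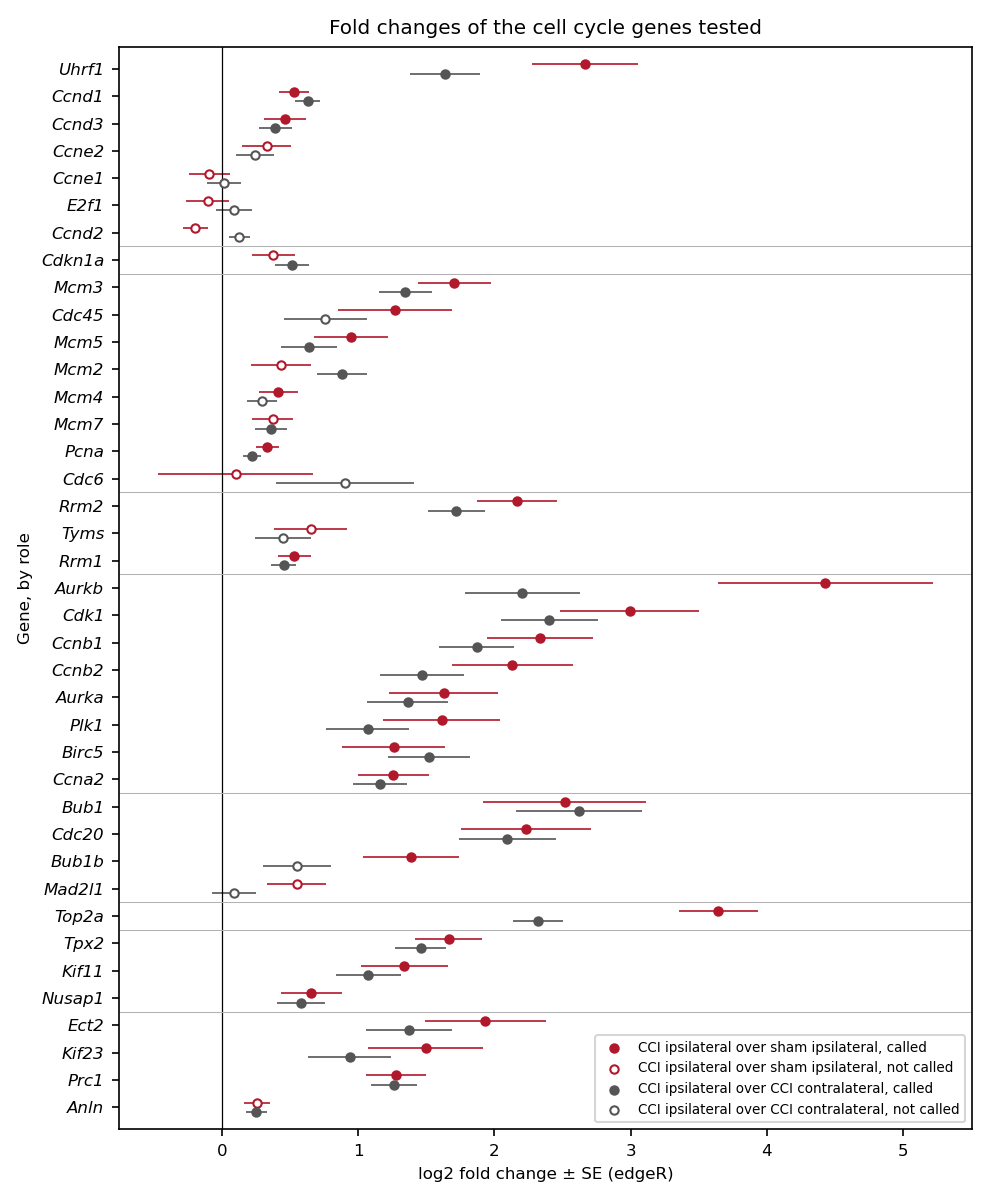
Log2 fold change with its standard error for each tested gene in CCI ipsilateral over sham ipsilateral hemispheres (red) and CCI ipsilateral over CCI contralateral hemispheres (grey), both from edgeR, with filled points for called genes. Top2a stands at 3.65 and 2.32, and Ccne1, E2f1 and Ccnd2 lie at or near 0 in both.

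The genes of G1 behaved unevenly. Of 7 cyclins and entry factors 3 were called higher in CCI ipsilateral against sham ipsilateral hemispheres, namely Ccnd1, Ccnd3 and Uhrf1, and Ccnd2, Ccne1, Ccne2 and E2f1 were not called. Ccnd1 (chr7:144929931-144939925, GRCm38, minus strand), the D cyclin most often linked to mitogen signals, had 69.5, 64.3, 70.3 and 90.1 CPM in CCI ipsilateral hemispheres, against 54.2 and 48.0 CPM in sham ipsilateral ones. CCI contralateral hemispheres had 50.1, 52.1, 43.4 and 44.7 CPM and sham contralateral ones 48.0, 44.9 and 49.7 CPM. All 4 injured hemispheres lay above the 9 other libraries, which overlapped one another. The fold change was 1.44 against sham ipsilateral hemispheres (log2 0.53 ± 0.11, SE; edgeR adjusted p = 0.00116) and 1.54 against CCI contralateral ones (log2 0.63 ± 0.09; edgeR adjusted p = 1.44e-05). Without sham ipsilateral animal 6 the first of these had an edgeR adjusted p of 0.0647.

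Ccnd2 (chr6:127125162-127152193, minus strand), a second D cyclin, had 80.5, 70.2, 67.5 and 74.6 CPM in CCI ipsilateral hemispheres, against 85.1 and 82.7 CPM in sham ipsilateral, 78.8, 59.5, 60.6 and 69.8 CPM in CCI contralateral and 67.7, 70.8 and 78.5 CPM in sham contralateral ones. The injured hemispheres lay below the sham ipsilateral pair and overlapped the contralateral libraries, with animal 1 at 80.5 CPM just above the highest of those, at 78.8 CPM. The log2 difference from sham ipsilateral hemispheres was -0.20 ± 0.09 (edgeR adjusted p = 0.143), so Ccnd1 and Ccnd2 differed in sign and only the first was called. Ccnd3 (chr17:47505051-47599691, plus strand), the third D cyclin, had 24.8, 22.7, 24.4 and 35.5 CPM in CCI ipsilateral hemispheres, against 20.7 and 18.4 CPM in sham ipsilateral, 21.5, 20.0, 17.6 and 23.5 CPM in CCI contralateral and 24.6, 21.6 and 22.0 CPM in sham contralateral ones. Animal 5 was the high value, and the remaining injured hemispheres overlapped the contralateral groups. Its log2 fold change was 0.46 ± 0.16 against sham ipsilateral hemispheres (edgeR adjusted p = 0.0332) and 0.39 ± 0.12 against CCI contralateral ones (edgeR adjusted p = 0.0227). Without CCI ipsilateral animal 5 these were 0.29 and 0.22 with edgeR adjusted p of 0.119 and 0.165, and the first was also lost without either sham ipsilateral library, at 0.0847 without animal 4 and 0.304 without animal 6.

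Uhrf1 (chr17:56303321-56323486, plus strand) reads half-methylated DNA behind the replication fork and brings in the maintenance methyltransferase. It is counted in the G1 and entry group although it acts at the fork, and had the smallest p of that group. It had 5.50, 3.58, 4.65 and 7.10 CPM in CCI ipsilateral hemispheres, against 1.03 and 0.604 CPM in sham ipsilateral, 1.77, 1.96, 1.34 and 1.60 CPM in CCI contralateral and 1.34, 1.39 and 1.49 CPM in sham contralateral ones. Every injured hemisphere exceeded every other library, by 6.34-fold against sham ipsilateral (log2 2.66 ± 0.39; edgeR adjusted p = 7.35e-06) and 3.10-fold against CCI contralateral hemispheres (log2 1.63 ± 0.26; edgeR adjusted p = 1.84e-05). Ccne1 (chr7:38097984-38107534, minus strand), an E cyclin that with Cdk2 fires S phase, had the largest p of the group. It had 13.7, 14.8, 17.0 and 12.7 CPM in CCI ipsilateral hemispheres, against 17.6 and 13.6 CPM in sham ipsilateral, 14.0, 15.1, 12.2 and 16.6 CPM in CCI contralateral and 15.0, 16.6 and 13.8 CPM in sham contralateral ones. The 4 groups overlapped throughout, with a log2 difference from sham ipsilateral hemispheres of -0.09 ± 0.15. Ccne2, the other E cyclin, had log2 0.33 ± 0.18 (edgeR adjusted p = 0.209), and its 2 sham ipsilateral libraries stood apart at 6.89 and 11.5 CPM. Without animal 6 its edgeR adjusted p was 0.0345. E2f1, the founding E2F factor, had log2 -0.11 ± 0.16 (edgeR adjusted p = 0.694).

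Cdkn1a (chr17:29090976-29100727, plus strand) encodes p21, which inhibits cyclin-dependent kinases and is a classic target of p53. It had 18.1, 22.3, 24.1 and 18.6 CPM in CCI ipsilateral hemispheres, against 15.0 and 16.9 CPM in sham ipsilateral, 13.1, 18.6, 11.2 and 15.5 CPM in CCI contralateral and 15.9, 16.6 and 18.9 CPM in sham contralateral ones. The injured hemispheres lay above the sham ipsilateral pair and overlapped both contralateral groups at their low end. The log2 fold change was 0.38 ± 0.16 against sham ipsilateral hemispheres (edgeR adjusted p = 0.0927, not called) and 0.51 ± 0.13 against CCI contralateral ones (edgeR adjusted p = 0.00403, called). In the authors' deposited table Cdkn1a stands at log2 -2.13 for CCI ipsilateral against sham ipsilateral hemispheres, with an adjusted p of 0.0047. The deposited counts do not run that way, with 135, 181, 176 and 149 in CCI ipsilateral libraries and 87 and 112 in sham ipsilateral ones.

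**Figure D3:**
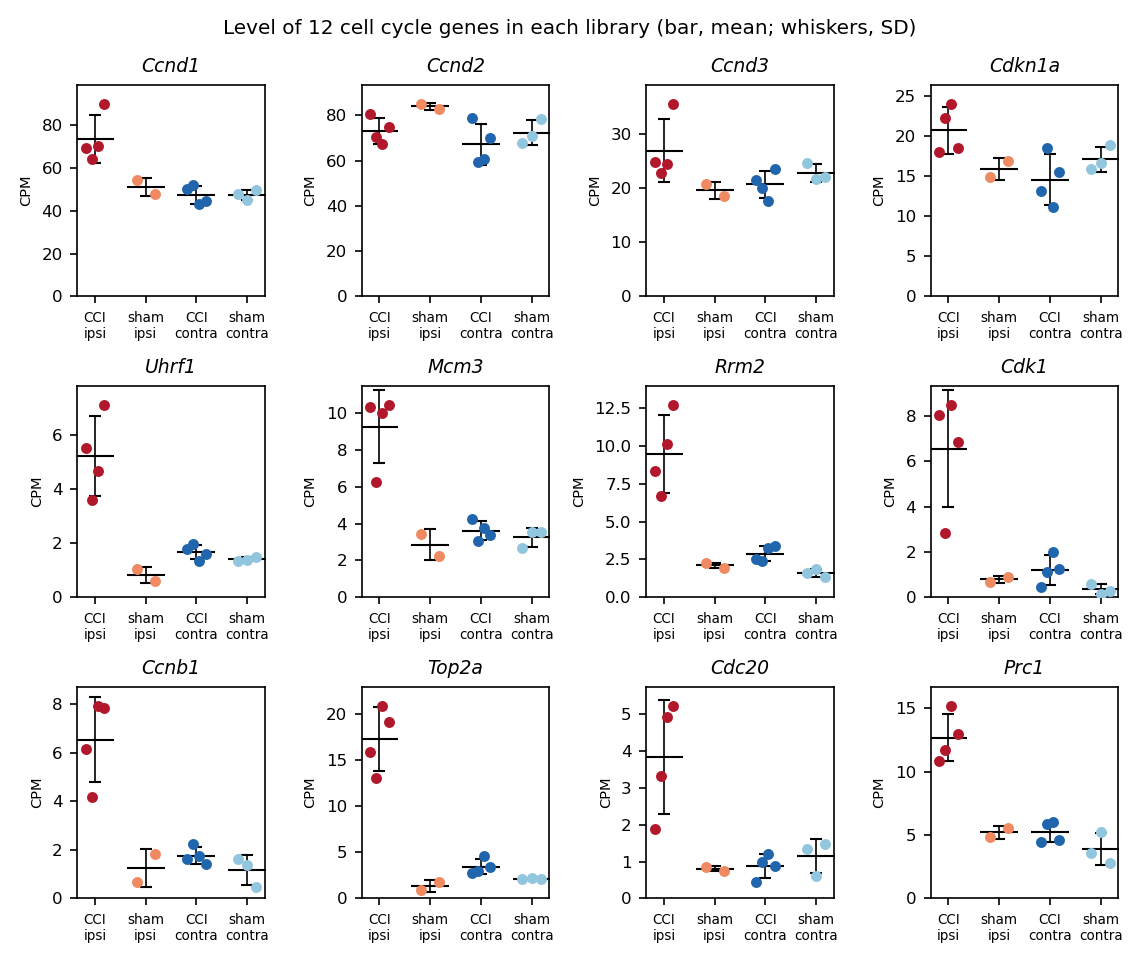
CPM of 12 cell cycle genes in each library, with 1 panel per gene and the groups along the horizontal axis as CCI ipsilateral, sham ipsilateral, CCI contralateral and sham contralateral. Points are libraries, bars are means and whiskers are SD; Ccnd2 shows no rise in CCI ipsilateral hemispheres and Top2a reaches 13.1 to 20.9 CPM there, against 0.861 to 4.57 CPM in all other libraries.

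Of 8 tested genes that license or run the replication fork 5 were called higher in CCI ipsilateral against sham ipsilateral hemispheres: Mcm3, Mcm4, Mcm5, Pcna and Cdc45. Mcm3 (chr1:20802968-20820312, minus strand) is a subunit of the replicative helicase and its window above holds 2 E2F sites. It had 10.3, 6.29, 9.99 and 10.5 CPM in CCI ipsilateral hemispheres, against 3.44 and 2.26 CPM in sham ipsilateral, 4.28, 3.07, 3.76 and 3.38 CPM in CCI contralateral and 2.67, 3.55 and 3.57 CPM in sham contralateral ones. Animal 2 was the low value of the injured hemispheres and still lay above all 9 other libraries. The fold change was 3.26 against sham ipsilateral (log2 1.70 ± 0.27; edgeR adjusted p = 1.93e-05) and 2.54 against CCI contralateral hemispheres (log2 1.35 ± 0.20; edgeR adjusted p = 6.20e-06). On the authors' TPM scale, which corrects for transcript length, the sham ipsilateral libraries stood at 5.68 and 1.84 TPM, and limma on log2(TPM + 1) gave an adjusted p of 0.0540 for that comparison.

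Cdc6 (chr11:98907801-98923940, plus strand), which loads the helicase onto origins, had the largest p of the replication group. It had 1.34, 1.11, 1.09 and 1.25 CPM in CCI ipsilateral hemispheres, against 0.517 and 1.66 CPM in sham ipsilateral, 1.62, 0.140, 0.269 and 0.534 CPM in CCI contralateral and 0.742, 0.463 and 0.297 CPM in sham contralateral ones. The injured hemispheres lay close together and above every sham contralateral library. The sham ipsilateral and CCI contralateral groups each had values above and below them. Its log2 difference was 0.10 ± 0.57 against sham ipsilateral and 0.90 ± 0.51 against CCI contralateral hemispheres. Neither was called by edgeR (adjusted p = 0.931 and 0.223), but limma voom called the second with the animal as a block (log2 1.30, adjusted p = 0.0350) and not without it (adjusted p = 0.0578).

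The remaining helicase subunits moved by less than Mcm3. Mcm5 had 5.18 to 12.9 CPM in CCI ipsilateral and 4.82 to 5.13 CPM in sham ipsilateral hemispheres (log2 0.95 ± 0.27; edgeR adjusted p = 0.0118). That call did not hold without either sham ipsilateral library, at adjusted p of 0.0992 without animal 4 and 0.104 without animal 6, nor in limma voom, with or without the animal as a block (adjusted p = 0.0784 and 0.0872). Mcm4 had log2 0.41 ± 0.14 (edgeR adjusted p = 0.0316) and lost the call, among others, without sham ipsilateral animal 6 (0.333), sham ipsilateral animal 4 (0.0522), CCI ipsilateral animal 3 (0.0518) or CCI ipsilateral animal 5 (0.0734). Mcm2 and Mcm7 had log2 0.43 ± 0.22 and 0.37 ± 0.15 and were not called. Pcna, the sliding clamp of the fork that also serves DNA repair, had 52.1 to 57.4 CPM in CCI ipsilateral and 43.6 and 44.1 CPM in sham ipsilateral hemispheres. This is a small change that was larger than the spread between libraries (log2 0.33 ± 0.08; edgeR adjusted p = 0.00414), though without sham ipsilateral animal 6 its adjusted p was 0.0620. Cdc45, which joins the helicase when an origin fires, had 2.62 to 3.49 CPM in CCI ipsilateral and 0.689 and 1.66 CPM in sham ipsilateral hemispheres (log2 1.27 ± 0.42; edgeR adjusted p = 0.0271). Its adjusted p was 0.302 without sham ipsilateral animal 4 and 0.0615 without CCI ipsilateral animal 1.

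Nucleotide supply followed the replication genes. Rrm2 (chr12:24708241-24714146, plus strand), the small subunit of ribonucleotide reductase that is made in S phase, had 8.32, 6.66, 10.1 and 12.7 CPM in CCI ipsilateral hemispheres, against 2.24 and 1.96 CPM in sham ipsilateral, 2.51, 2.38, 3.22 and 3.38 CPM in CCI contralateral and 1.63, 1.85 and 1.34 CPM in sham contralateral ones. The injured hemispheres lay above all other libraries, 4.49-fold above sham ipsilateral (log2 2.17 ± 0.29; edgeR adjusted p = 2.36e-06) and 3.29-fold above CCI contralateral ones (log2 1.72 ± 0.21; edgeR adjusted p = 4.41e-07). Rrm1, the large subunit, had 25.8 to 33.7 CPM in CCI ipsilateral and 19.8 and 23.6 CPM in sham ipsilateral hemispheres (log2 0.53 ± 0.12; edgeR adjusted p = 0.00143; 0.0991 without sham ipsilateral animal 6). Tyms (chr5:30058202-30073617, minus strand), the thymidylate synthase, had 6.17, 6.29, 6.57 and 4.73 CPM in CCI ipsilateral hemispheres, against 3.44 and 4.08 CPM in sham ipsilateral, 3.39, 4.47, 4.16 and 5.52 CPM in CCI contralateral and 4.45, 2.62 and 2.23 CPM in sham contralateral ones. It lay above the sham ipsilateral pair without being called (log2 0.65 ± 0.27; edgeR adjusted p = 0.0832).

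The group of mitotic cyclins and kinases also holds Birc5, a partner of a kinase. All 8 of its genes were called higher, each at least 2-fold, in CCI ipsilateral against sham ipsilateral hemispheres and again against CCI contralateral ones. Of these genes Cdk1, Ccnb2 and Aurkb were tested only through the CCI ipsilateral libraries. The summed level of all 8 was 34.6, 26.0, 48.2 and 46.3 CPM in CCI ipsilateral hemispheres, against 10.9 and 10.4 CPM in sham ipsilateral, 11.7, 14.4, 14.0 and 12.3 CPM in CCI contralateral and 10.7, 10.8 and 9.81 CPM in sham contralateral ones. Ccnb1 (chr13:100778650-100786570, minus strand), the B cyclin that activates Cdk1 for entry into mitosis, had the smallest p of the group. It had 6.17, 4.19, 7.94 and 7.85 CPM in CCI ipsilateral hemispheres, against 0.689 and 1.81 CPM in sham ipsilateral, 1.62, 2.23, 1.75 and 1.42 CPM in CCI contralateral and 1.63, 1.39 and 0.446 CPM in sham contralateral ones. The lowest injured hemisphere, animal 2, exceeded the highest of the other libraries, and the fold change was 5.04 against sham ipsilateral (log2 2.33 ± 0.39; edgeR adjusted p = 4.16e-05) and 3.65 against CCI contralateral hemispheres (log2 1.87 ± 0.28; edgeR adjusted p = 7.68e-06). Birc5 (chr11:117849251-117855743, plus strand), or survivin, a partner of Aurora B in the chromosomal passenger complex, had the largest p of the group. It had 3.35, 2.59, 4.93 and 5.48 CPM in CCI ipsilateral hemispheres, against 2.07 and 1.36 CPM in sham ipsilateral, 1.03, 1.26, 1.61 and 1.78 CPM in CCI contralateral and 0.891, 1.08 and 1.93 CPM in sham contralateral ones. The injured hemispheres lay above all 9 other libraries, which overlapped one another (log2 1.26 ± 0.38; edgeR adjusted p = 0.0148), but the call against sham ipsilateral hemispheres was lost without sham ipsilateral animal 6 (0.228) or CCI ipsilateral animal 5 (0.0559).

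**Figure D4:**
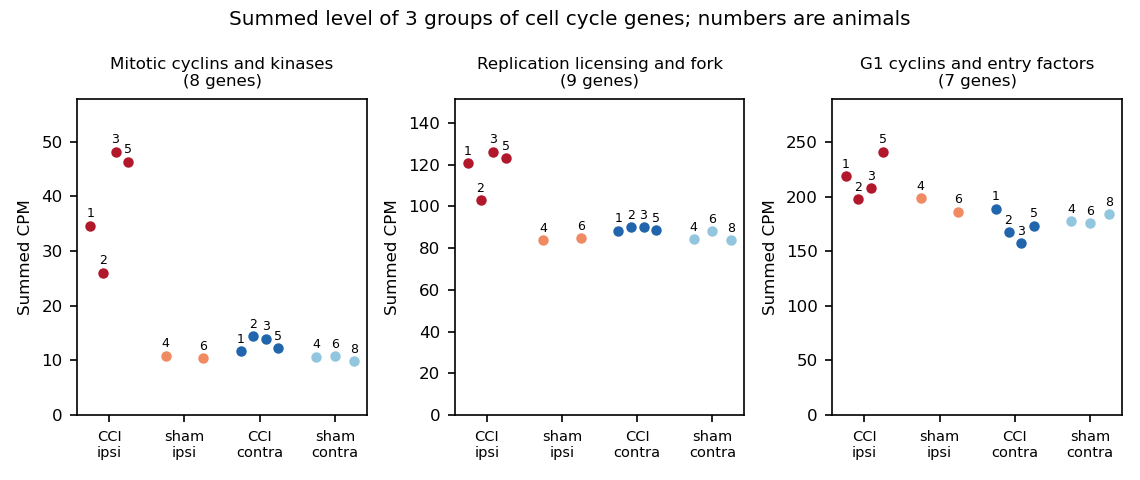
Summed CPM of the mitotic cyclins and kinases, the replication genes and the G1 cyclins and entry factors in each library, with numbers giving the animal and each vertical axis starting at 0. The mitotic sum reaches 26.0 to 48.2 CPM in CCI ipsilateral hemispheres and stays at or below 14.4 CPM elsewhere, while the G1 sum of 197.5 to 241.4 CPM overlaps the 186.3 and 198.6 CPM of sham ipsilateral hemispheres.

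Cdk1, the kinase that drives mitosis and whose window holds all 3 motifs, had 8.05, 2.84, 8.49 and 6.85 CPM in CCI ipsilateral hemispheres, against 0.689 and 0.906 CPM in sham ipsilateral, 0.442, 1.12, 2.02 and 1.25 CPM in CCI contralateral and 0.594, 0.154 and 0.297 CPM in sham contralateral ones. Animal 2 again was the low injured hemisphere, and the log2 fold change against sham ipsilateral hemispheres was 2.99 ± 0.51 (edgeR adjusted p = 0.000143). On the TPM scale the sham ipsilateral libraries were at 2.44 and 2.27 TPM and the injured ones at 14.6, 3.73, 11.1 and 9.35 TPM, and limma on log2(TPM + 1) gave an adjusted p of 0.0564. Aurkb, the Aurora kinase of the centromere and midzone, was near the floor of detection outside the injury. It had 65 reads over the 4 CCI ipsilateral libraries and 1 over the sham ipsilateral pair, a depth-scaled ratio of 26.2 (95% exact counting interval 4.53 to 1049). Ccna2, the A cyclin of S phase and G2, had log2 1.26 ± 0.26, and Ccnb2, the second B cyclin, log2 2.13 ± 0.44 (edgeR adjusted p = 0.000525 and 0.000570). Aurka, the Aurora kinase of the spindle poles, and Plk1, the polo kinase of mitotic entry, had log2 1.63 ± 0.40 and 1.61 ± 0.43 (edgeR adjusted p = 0.00306 and 0.00581), and both lost the call without sham ipsilateral animal 6, at 0.0851 and 0.115.

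Top2a (chr11:98992943-99024189, minus strand), the topoisomerase that untangles chromosomes before they part, had the smallest p of all listed genes. It had 16.0, 13.1, 20.9 and 19.2 CPM in CCI ipsilateral hemispheres, against 0.861 and 1.81 CPM in sham ipsilateral, 2.80, 2.93, 4.57 and 3.38 CPM in CCI contralateral and 2.08, 2.16 and 2.08 CPM in sham contralateral ones. The injured hemispheres were far above the rest, and the CCI contralateral ones lay just above both sham groups. The fold change was 12.5 against sham ipsilateral (log2 3.65 ± 0.29; edgeR adjusted p = 1.76e-10) and 5.00 against CCI contralateral hemispheres (log2 2.32 ± 0.18; edgeR adjusted p = 1.07e-10). Its window holds 6 CCAAT boxes and 2 CHR motifs.

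Of 4 genes of the spindle checkpoint and mitotic exit 3 were called higher in CCI ipsilateral against sham ipsilateral hemispheres. Among these, Cdc20 and Bub1 had passed the filter on low counts only through the CCI ipsilateral libraries. Cdc20 (chr4:118432901-118437352, minus strand), which activates the anaphase-promoting complex, had 1.88, 3.33, 4.93 and 5.23 CPM in CCI ipsilateral hemispheres, against 0.861 and 0.755 CPM in sham ipsilateral, 0.442, 0.978, 1.21 and 0.890 CPM in CCI contralateral and 1.34, 0.617 and 1.49 CPM in sham contralateral ones. No group overlapped the injured one, and the fold change was 4.70 against sham ipsilateral hemispheres (log2 2.23 ± 0.48; edgeR adjusted p = 0.000787). Cdc20 overlaps Elovl1 on the opposite strand, and the sources used here do not give whether the counting used strand. Bub1, a checkpoint kinase of the kinetochore, had log2 2.52 ± 0.60 (edgeR adjusted p = 0.00234), and Bub1b, or BubR1, a part of the checkpoint complex that holds Cdc20, log2 1.39 ± 0.35 (edgeR adjusted p = 0.00541). Without sham ipsilateral animal 4 their adjusted p were 0.0678 and 0.0866. Mad2l1 (chr6:66535390-66547220, plus strand), the Mad2 protein of the same complex, had 8.59, 6.79, 8.90 and 7.35 CPM in CCI ipsilateral hemispheres, against 5.51 and 5.28 CPM in sham ipsilateral, 5.75, 9.22, 7.79 and 6.76 CPM in CCI contralateral and 8.17, 9.87 and 8.32 CPM in sham contralateral ones. The sham ipsilateral pair stood lowest and the other groups overlapped, and the gene was not called (log2 0.55 ± 0.21; edgeR adjusted p = 0.0646).

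All 3 tested spindle genes were called higher. Tpx2 (chr2:152847964-152895321, plus strand), which activates Aurora A on spindle microtubules, had 9.52, 7.77, 11.1 and 11.3 CPM in CCI ipsilateral hemispheres, against 2.24 and 3.92 CPM in sham ipsilateral, 3.83, 3.35, 3.36 and 3.92 CPM in CCI contralateral and 2.97, 3.70 and 2.83 CPM in sham contralateral ones. The 9 other libraries fell in a narrow band below the injured ones, and the fold change was 3.17 against sham ipsilateral (log2 1.66 ± 0.25; edgeR adjusted p = 9.83e-06) and 2.75 against CCI contralateral hemispheres (log2 1.46 ± 0.19; edgeR adjusted p = 8.46e-07). Kif11, the motor that pushes spindle poles apart, had log2 1.34 ± 0.32 (edgeR adjusted p = 0.00221; 0.113 without sham ipsilateral animal 6). Nusap1 (chr2:119618298-119651244, plus strand), a microtubule bundler of the spindle, had 6.98, 5.92, 7.94 and 7.23 CPM in CCI ipsilateral hemispheres, against 4.99 and 3.92 CPM in sham ipsilateral, 5.16, 4.61, 4.97 and 3.92 CPM in CCI contralateral and 3.27, 2.93 and 3.72 CPM in sham contralateral ones. It was the weakest of the 3 (log2 0.66 ± 0.23; edgeR adjusted p = 0.0343), and its call was lost without any of the CCI ipsilateral animals 1, 3 and 5 (0.0516, 0.0815 and 0.0676) or the sham ipsilateral animals 4 and 6 (0.0531 and 0.335). The kinetochore genes Cenpe and Cenpf were too low to test. Cenpf had 8, 6, 8 and 7 reads in CCI ipsilateral libraries, against 1 and 1 in sham ipsilateral, 0, 0, 0 and 1 in CCI contralateral and 1, 3 and 0 in sham contralateral ones, and Cenpe had 5 to 9 reads in CCI ipsilateral and 1 and 4 in sham ipsilateral libraries.

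Of 4 cytokinesis genes 3 were called higher against sham ipsilateral hemispheres. Prc1 (chr7:80294450-80316259, plus strand), which bundles the microtubules of the midzone, had 10.9, 11.7, 15.2 and 13.0 CPM in CCI ipsilateral hemispheres, against 4.82 and 5.58 CPM in sham ipsilateral, 4.42, 5.87, 6.04 and 4.63 CPM in CCI contralateral and 3.56, 5.24 and 2.83 CPM in sham contralateral ones. The injured hemispheres lay above all others, 2.42-fold against sham ipsilateral (log2 1.28 ± 0.22; edgeR adjusted p = 6e-05) and 2.40-fold against CCI contralateral ones (log2 1.26 ± 0.17; edgeR adjusted p = 1.69e-06). On the TPM scale the first comparison had log2 0.65 and an adjusted p of 0.0548 in limma on log2(TPM + 1). Ect2, the exchange factor that activates RhoA at the furrow, had log2 1.93 ± 0.44 (edgeR adjusted p = 0.00171), and Kif23, the kinesin of the midzone, log2 1.50 ± 0.42 (edgeR adjusted p = 0.00949; 0.242 without sham ipsilateral animal 4). Anln (chr9:22332012-22389188, minus strand), the scaffold of the contractile ring that in mouse is also part of the septin scaffold of mature myelin, had 62.2, 55.6, 66.7 and 64.3 CPM in CCI ipsilateral hemispheres, against 49.2 and 54.8 CPM in sham ipsilateral, 51.0, 50.4, 60.7 and 45.8 CPM in CCI contralateral and 52.9, 50.6 and 50.1 CPM in sham contralateral ones. It lay just above the sham ipsilateral pair (log2 0.25 ± 0.09; edgeR adjusted p = 0.0513) and was called against CCI contralateral hemispheres (log2 0.25 ± 0.08; edgeR adjusted p = 0.0148), a call that was lost without CCI ipsilateral animal 3 (0.0603) or 5 (0.0526) or CCI contralateral animal 5 (0.0636).

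By level, and leaving aside the 5 genes that passed the filter only through the CCI ipsilateral libraries, 11 of the 13 genes that averaged under 5 CPM were called higher, at a median log2 fold change of 1.50. In that range 15.8% of all genes were called higher, at a median of 0.23. The figures for all genes in this paragraph keep genes that passed the filter only through the CCI ipsilateral libraries. Of the 15 genes at 5 to 20 CPM 8 were called, at a median of 0.55, against 14.9% of all genes at a median of 0.08. Of the 6 genes at 20 CPM or more 4 were called, at a median of 0.40, against 10.1% of all genes at a median of -0.05. The median thus fell with level over all genes too. On the TPM scale Pcna was the most abundant of the called genes, at 79.8 to 89.5 TPM in CCI ipsilateral and 63.3 and 65.9 TPM in sham ipsilateral hemispheres, whereas Top2a had 6.80 to 12.0 TPM in CCI ipsilateral and 0.828 and 1.71 TPM in sham ipsilateral ones. The summed level of the 39 tested genes was 511.7 to 632.7 CPM in CCI ipsilateral and 408.8 and 412.6 CPM in sham ipsilateral hemispheres. The 21 genes called at least 2-fold higher made up 19.8 to 24.7% of that sum in CCI ipsilateral and 8.18 to 9.19% in sham ipsilateral hemispheres. These 21 were picked by this same comparison, so the direction of that difference was fixed in advance and only its size is descriptive.

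**Figure D5:**
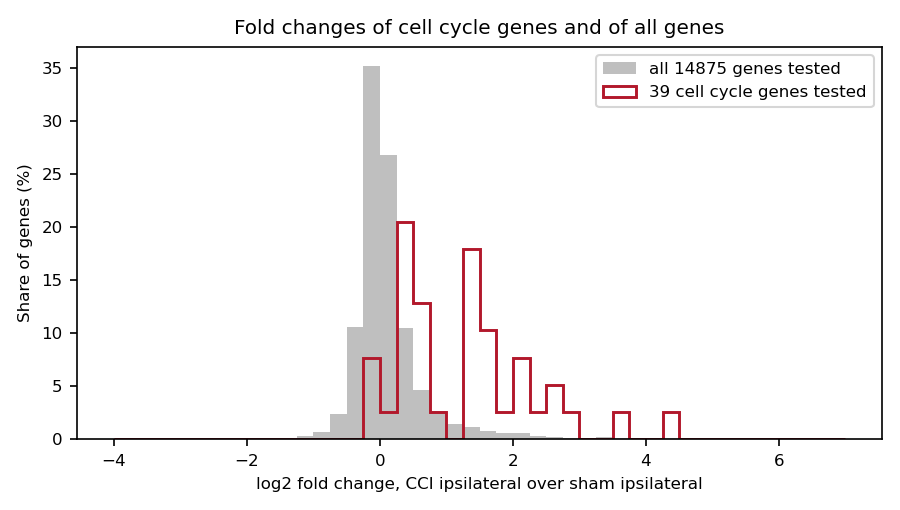
Share of genes (%) by log2 fold change in CCI ipsilateral over sham ipsilateral hemispheres, for all 14875 genes tested (grey) and the 39 cell cycle genes tested (red outline). The grey bars centre on 0 and the red outline is shifted to a median of 1.26.

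Set against the opposite hemisphere of the same mice, 29 of 39 genes were higher in CCI ipsilateral hemispheres and 0 were lower, at a median log2 fold change of 0.90, where 21.7% of all genes were called and 12.8% as higher. Both comparisons use the same CCI ipsilateral libraries, and Cdk1, Ccnb2, Aurkb, Bub1 and Cdc20 were tested only through them. In 24 genes the CCI ipsilateral libraries all lay above the CCI contralateral ones, a count that was not made over all genes. Some genes passed the threshold in 1 of the 2 comparisons alone, and the difference between the comparisons was not tested. Mcm2, the helicase subunit, had log2 0.88 ± 0.18 against CCI contralateral (edgeR adjusted p = 0.000582) and 0.43 ± 0.22 against sham ipsilateral hemispheres (edgeR adjusted p = 0.174). Mcm7 had log2 0.36 ± 0.12 (edgeR adjusted p = 0.0272) and 0.37 ± 0.15 (edgeR adjusted p = 0.0729) in the same order, and the first was lost without any of CCI contralateral animals 1, 2 and 3 (0.0646, 0.0645 and 0.108) or CCI ipsilateral animals 1 and 3 (0.0532 and 0.0994). Cdc45, Mcm4 and Bub1b had log2 0.76 ± 0.30, 0.29 ± 0.11 and 0.55 ± 0.25 against CCI contralateral hemispheres and were not called by edgeR (adjusted p = 0.0741, 0.0515 and 0.123). With the animal as a block Mcm4 and Bub1b were called by edgeR (adjusted p = 0.0459 and 0.0265). Limma voom called Cdc45 with and without the block (adjusted p = 0.0313 and 0.0494). Mcm5 was called by edgeR (log2 0.64 ± 0.21, adjusted p = 0.0244) and not by limma voom with or without the block (adjusted p = 0.0682 and 0.113). The call of Mcm5 was also lost in edgeR on the 2 groups alone (adjusted p = 0.0704), in DESeq2 (0.0762) and in both limma tests on TPM. It was lost in edgeR without CCI contralateral animal 2 or 5 or CCI ipsilateral animal 3 or 5 as well.

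The difference between hemispheres was larger in CCI mice than in sham mice for 7 of the 39 genes and smaller for 0, where 7.83% of all genes were called and 4.84% as larger. The difference of differences was log2 2.94 ± 0.44 for Top2a (edgeR adjusted p = 8.02e-05), 2.42 ± 0.55 for Uhrf1 (0.00564), 1.48 ± 0.35 for Tpx2 (0.00799) and 1.55 ± 0.37 for Mcm3 (0.00834). It was 2.60 ± 0.69 for Cdc20 (edgeR adjusted p = 0.0163), 1.27 ± 0.36 for Ccna2 (0.0233) and 0.52 ± 0.15 for Ccnd1 (0.0338). This test rests on 2 sham ipsilateral libraries, and Cdc20 was tested only through the CCI ipsilateral libraries. The count was 3 without either one, 4 without sham contralateral animal 4 and 13 without CCI ipsilateral animal 2. Without sham ipsilateral animal 4 the calls of Uhrf1, Mcm3 and Top2a remained of the 7, and without animal 6 those of Top2a and Tpx2. Top2a was called under every alternative tried. With the animal as a fixed block in edgeR, Ccnd1 had log2 0.48 and an adjusted p of 0.109.

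The uninjured side of CCI mice showed 0 called cell cycle genes against sham contralateral hemispheres by edgeR, and 0 by DESeq2 and both limma tests, where 0.0941% of all genes were called, 0.0807% as higher and 0.0134% as lower. The unadjusted p was under 0.05 for 4 genes. Rrm2 had log2 0.83 ± 0.30 (unadjusted p = 0.0109), Cdk1 1.75 ± 0.66 (0.0147), Top2a 0.70 ± 0.28 (0.0164) and Nusap1 0.50 ± 0.22 (0.0274), and the lowest edgeR adjusted p was 0.538. The estimate was positive for 31 of 39 genes at a median of 0.19, where the median over all genes was -0.001. In 5 genes, Top2a, Rrm1, Rrm2, Mcm5 and Nusap1, all 4 CCI contralateral libraries lay above all 3 sham contralateral ones. Sham ipsilateral and sham contralateral hemispheres also had 0 called cell cycle genes by edgeR, DESeq2 and both limma tests, where 0.00672% of all genes were called, with 3 genes at an unadjusted p under 0.05. Mad2l1 was one of them, at log2 -0.70 ± 0.22 (unadjusted p = 0.00377, edgeR adjusted p = 0.610). Counts by unadjusted p, by sign and by separation of libraries were not made over all genes in either comparison.

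The injured mice differed among themselves in a shared order. Of the 28 genes called higher against sham ipsilateral hemispheres, animal 5 had the highest CCI ipsilateral level in 13, animal 3 in 12, animal 1 in 2 and animal 2 in 1. Animal 2 had the lowest level in 21 of the 28 (75%). Animal 2 was also the lowest for 59.8% of the 1859 genes called higher in the whole table, so the order was shared beyond the cell cycle genes.

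Other genes of the cycle, not among the 43, were counted in the same way. In these lists genes that passed the filter only through the CCI ipsilateral libraries were neither counted nor set aside. Such genes enter because they are high there, so the counts of higher genes and the medians lean upward. Kif2c had 0 to 4 reads and Dlgap5 0 to 5 reads in each library outside the injured hemispheres. Of 56 tested mitosis genes 40 were called higher and 1 lower in CCI ipsilateral against sham ipsilateral hemispheres, at a median log2 fold change of 1.58, where 12.5% of all genes were called higher and 10% lower. Kif2c, a kinesin that corrects faulty kinetochore attachments, had 74 reads in the 4 CCI ipsilateral libraries and 0 in the sham ipsilateral pair, at least 9.93-fold higher when the pair is set at a floor of 3 counts. Pbk, a mitotic kinase, had log2 4.60 ± 0.45 (edgeR adjusted p = 8.65e-09). Dlgap5, a spindle protein, had 72 reads against 1, a depth-scaled ratio of 29.0 (95% exact counting interval 5.04 to 1160). Cit, the citron kinase of the contractile ring that is also made in neurons, was the 1 gene that fell, to 131 ± 9.0 CPM in CCI ipsilateral against 167 ± 4.4 CPM in sham ipsilateral hemispheres (SD, n = 4 and 2; log2 -0.35 ± 0.07; edgeR adjusted p = 0.000708). Against CCI contralateral hemispheres 40 of the 56 were higher and 0 lower, where 12.8% of all genes were called higher and 8.9% lower.

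Of 34 tested replication genes off the list 13 were called higher and 0 lower against sham ipsilateral hemispheres, at a median log2 of 0.57. Tk1, the thymidine kinase of S phase, had log2 2.04 ± 0.34, and Pole, the leading-strand polymerase, 1.60 ± 0.33 (edgeR adjusted p = 4.71e-05 and 0.000477). Of 13 tested drivers of G1 and S phase entry 4 were higher and 1 lower. Over all genes 12.5% were called higher and 10% lower, so the 1 lower driver is near the share of all genes. E2f8, an atypical E2F that represses others, had 62 reads in CCI ipsilateral libraries against 3 in sham ipsilateral ones, a depth-scaled ratio of 8.32 (95% exact counting interval 2.72 to 41.4). E2f2 had log2 1.28 ± 0.47 and Cdk2, the partner of cyclin E, 0.91 ± 0.29 (edgeR adjusted p = 0.0483 and 0.0225), and Mycn fell by 0.65 ± 0.21 on the log2 scale (edgeR adjusted p = 0.0250).

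Of 13 tested brakes on the cycle 2 were higher and 0 lower against sham ipsilateral hemispheres, at a median log2 of 0.11, a share near the 12.5% of all genes called higher. These were Cdkn2c, or p18, which inhibits Cdk4 and Cdk6 (log2 1.62 ± 0.36; edgeR adjusted p = 0.00101), and Rb1, the retinoblastoma protein that holds E2F factors (log2 0.31 ± 0.11; edgeR adjusted p = 0.0393). Of 21 tested p53 targets 7 were higher and 1 lower, at a median of 0.33, where 12.5% of all genes were called higher and 10% lower. The largest were Ckap2 (log2 3.39 ± 0.45), a spindle protein that is also on the mitosis list, Eda2r (2.10 ± 0.56), a receptor of the tumour necrosis factor family, and Dcxr (0.87 ± 0.26), with edgeR adjusted p of 1.60e-06, 0.00575 and 0.0141. Plk2, a polo kinase that in neurons responds to activity, fell by 0.35 ± 0.07 on the log2 scale (edgeR adjusted p = 0.000256). Against sham contralateral hemispheres CCI contralateral ones had 0 called genes in all 5 of these lists by edgeR. In that comparison 0.0941% of all genes were called.

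Markers of several cell types that can divide or enter the brain were higher in the same hemispheres, and their part in the cell cycle result was not tested. Markers of monocytes and macrophages were called higher in 6 of 6 tested genes of 10 listed, with a summed level of 340.1 to 577.3 CPM in CCI ipsilateral, against 33.9 and 34.6 CPM in sham ipsilateral, 45.0 to 55.6 CPM in CCI contralateral and 35.0 to 43.1 CPM in sham contralateral hemispheres. Lyz2 gave most of these reads in CCI ipsilateral libraries (11422) and Vcan, which is also an oligodendrocyte precursor marker, most in sham ipsilateral ones (308). Arg1 had at most 3 reads and Ms4a7 at most 8 in any library outside the injured hemispheres. Marker genes that passed the filter only through the CCI ipsilateral libraries were not set aside, which favours a call upward. Microglial markers were higher in 10 of 10, at 542.2 to 763 CPM in CCI ipsilateral and 289.5 and 309.1 CPM in sham ipsilateral hemispheres. Fibroblast markers were higher in 6 of 8, at 322.3 to 502.1 CPM against 151.2 and 164.4 CPM, astrocyte markers in 6 of 9 tested, at 6513 to 8262 CPM against 4943 and 5255 CPM, and oligodendrocyte precursor markers in 5 of 10, at 642.5 to 807.4 CPM against 496.1 and 509.9 CPM, each in CCI ipsilateral against sham ipsilateral hemispheres. Endothelial markers were higher in 2 of 10, oligodendrocyte markers in 3 of 6 and markers of neural progenitors and neuroblasts in 1 of 10, Nes, where 12.5% of all genes were called higher. Neuronal markers were lower in 6 of 7 tested, where 10% of all genes were called lower. Lymphocyte markers had 9.39 to 12.1 CPM in CCI ipsilateral and 11.5 and 13.3 CPM in sham ipsilateral hemispheres, most of it from Cd4 (301 reads in CCI ipsilateral and 142 in sham ipsilateral libraries). Cd3e and Ms4a1 are listed at 0 in all 13 libraries, as are Vim and Gad2, which brain tissue contains, so such a 0 may not be absence. Neutrophil markers had 3.08 to 7.48 CPM in CCI ipsilateral and 2.42 and 3.10 CPM in sham ipsilateral hemispheres, with 0 of 2 tested genes called.

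The authors' deposited table, set beside these fits, calls 24 listed genes higher and 1 lower, Cdkn1a, among 41 with an adjusted p in CCI ipsilateral against sham ipsilateral hemispheres. Of the 14875 genes tested here the authors' deposited table calls 2802 in that comparison, in either direction. Its estimates for CCI ipsilateral against CCI contralateral hemispheres lie within -0.00638 to 0.0552 of edgeR's log2 values for the 39 tested genes. Where sham libraries enter, the authors' deposited table departs from the counts by -2.51 to 0.899 for CCI ipsilateral against sham ipsilateral, by -2.54 to 0.423 for CCI contralateral against sham contralateral and by -0.421 to 1.88 for sham ipsilateral against sham contralateral hemispheres. Cdkn1a is the low end of the first 2, and Kif23 follows in both. The authors' deposited table lists Kif23 as lower, at log2 -0.78 and uncalled, in CCI ipsilateral against sham ipsilateral hemispheres. The counts gave the opposite direction, with means of 3.41 and 1.15 CPM in that order. For CCI contralateral against sham contralateral hemispheres the authors' deposited table lists Cdkn1a at log2 -2.78 with an adjusted p of 0.0038, where the counts were 89, 133, 83 and 87 in CCI contralateral and 107, 108 and 127 in sham contralateral libraries. The sources used here do not give which libraries entered the authors' fit.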

How the data were processed

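RNA from brain hemispheres of 7 mice gave 13 libraries, prepared from poly(A) RNA by a stranded kit, per the labels' protocols. Per the submitters' processing notes, RSEM, DESeq2 and bcl2fastq were used with build GRCm38, and the sources used here do not give the aligner or the strand setting. The authors deposited RSEM expected counts per gene (not normalized; 9.59% of values are not whole) and TPM, which the authors scaled for transcript length and library. Another deposited table holds the authors' log2 estimates, p-values and adjusted p-values, and a signed fold change, a score that was not used.

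Expected counts were rounded and fitted in edgeR 4.0.16 (R 4.3.3) with TMM scaling, filterByExpr, 1 model of 4 group means over all 13 libraries and Benjamini-Hochberg adjustment over 14875 genes, at a threshold of 0.05. With 2 sham ipsilateral libraries the spread is estimated from all groups together. Alternatives were RLE scaling, no filter, only the groups compared, DESeq2 1.42.0, limma 3.58.1 on log2(TPM + 1) and log2(TPM + 0.1), limma voom, the animal as a block, and leaving out each library. Counting intervals are exact at 95% and cover counting error only. Equal numbers mark the hemispheres of an animal, so they pair the samples by label. Deviations from the group means correlated at 0.00348 to 0.0882 within an animal, against -0.0966 to 0.0966 between different animals. No libraries were duplicates (chi-square per degree of freedom of at least 2 within groups).

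Genes were given in full, within each role, where they had the smallest or the largest edgeR p against sham ipsilateral hemispheres. Ccnd1, Ccnd2, Ccnd3 and Cdkn1a were always given, and Cdk1 in addition after its values were seen. From other lists the called genes with the largest changes were named, except 1 that is not reported here. The genes and lists were chosen with earlier results of these data known. Positions are from GENCODE M21, matched by gene ID without version (42929 IDs, the 42 listed genes included). Genes with an overlapping gene on the opposite strand (Ccna2, Ccnd1, Ccnd3, Ccne2, Cdc20, Cdc45, Mcm7, Nusap1 and Prc1 among them) or with a counted pseudogene (Ccnb2-ps, 292 counts in all libraries, and Pcna-ps2, 34.5) could share reads.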

Additional observations from a re-analysis of the deposited data

Results flagged for a closer look

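Single libraries stood far from the other 3 of their group for 2 of 78 groups of 4 examined, where chance alone gives about 1 in 20. Ccnd3 in the CCI ipsilateral hemisphere of animal 5 had 35.5 CPM, against 22.7 to 24.8 CPM in the other 3, a gap of 0.835 of the group's range. Mcm3 in the CCI ipsilateral hemisphere of animal 2 had 6.29 CPM, against 9.99 to 10.5 CPM in the other 3, a gap of 0.886 of the range.

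The difference between hemispheres was larger in CCI mice than in sham mice, by edgeR's test of the difference itself, for 7 genes. The log2 difference of differences was 0.52 for Ccnd1, 2.42 for Uhrf1, 1.55 for Mcm3, 1.27 for Ccna2, 2.60 for Cdc20, 2.94 for Top2a and 1.48 for Tpx2. The causes of these differences were not tested.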

How the results depend on the processing

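The count of cell cycle genes higher in CCI ipsilateral against sham ipsilateral hemispheres was 28, and 23 (DESeq2) to 28 under other tools, scalings, filters and fits. Leaving out 1 library gave 18 to 31, with 18 without sham ipsilateral animal 6. Against CCI contralateral hemispheres it was 29, and 22 to 32 under all alternatives. For the difference of hemisphere effects it was 7, and 5 to 10 under other settings, with 3 to 13 when 1 library was left out. The count of genes lower, and both counts in the comparisons of contralateral and of sham hemispheres, were 0 under every alternative run. Calls that held under every alternative numbered 9 of 28, 18 of 29 and 1 of 7 in these 3 comparisons, and leaving out a single library lost 15, 8 and 6.

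With the animal as a replicate block the counts were 27 against sham ipsilateral hemispheres (limma voom), 31 (edgeR) and 32 (limma voom) against CCI contralateral ones, and 10 and 9 for the difference of hemisphere effects. Within the same tool the block changed 4 calls given in the report, those of Mcm4, Bub1b and Cdc6 against CCI contralateral hemispheres and of Ccnd1 for the difference of hemisphere effects. In limma voom it also brought Ccna2 and Cdc20 past the threshold for that difference (adjusted p = 0.0348 and 0.0299, against 0.0634 and 0.0555 without it).

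Directions turned for uncalled genes alone. When 1 library was left out, Ccne1 against sham ipsilateral hemispheres ranged from log2 -0.276 to 0.094 and Cdc6 from -0.467 to 1.18, and against CCI contralateral hemispheres Ccne1 ranged from -0.070 to 0.077 and Mad2l1 from -0.017 to 0.226. Ccne1 against CCI contralateral hemispheres was -0.0015 on log2(TPM + 1) and -0.0016 on log2(TPM + 0.1). The cause was not tested.

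Over all genes, the 1493 lower against sham ipsilateral hemispheres became 699 and 693 on the TPM scales, the 1324 lower against CCI contralateral ones 602 and 588, and the 445 smaller hemisphere effects 164 and 152. Leaving out 1 library gave 985 to 2001 higher against sham ipsilateral hemispheres, against 1859. The 12 genes higher in CCI contralateral against sham contralateral hemispheres ranged from 1 to 72 and the 2 lower from 0 to 34, and in sham ipsilateral against sham contralateral ones the 0 higher ranged to 9 and the 1 lower from 0 to 17. Depth limits the genes under 5 CPM, of which Aurkb, Bub1, Cdk1, Ccnb2, Cdc20 and Uhrf1 rest on 1 to 10 reads over the sham ipsilateral pair.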
